A study of Rattus norvegicus with 35 samples.

Results

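Phenobarbital (PB) at 200 uM and PCN at 30 uM, the reference inducers of a study of triazole fungicides, were set against the vehicle in primary rat hepatocytes, liver cells taken from the animal and kept in culture. The arrays were chosen by their titles: 3 labelled PB, 2 labelled PCN and 3 labelled DMSO, 8 of the 35 arrays of the series. PB cells received 200 uM, PCN cells 30 uM, and DMSO cells 0.1% of the solvent, each for 72 h through the medium. Each label carried 1 of 3 codes, Rs256, Rs304 or Rs293. PB and DMSO had 1 array of each code, and PCN had Rs304 and Rs293 only. The study's design calls the arrays of a group biological replicates. What the code stands for is not given in the labels, nor are the strain, sex or age of the animals. The 2 inducers were compared at different doses, so a difference between them is not one at matched dose.

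Hepatocytes clear drugs with cytochrome P450 enzymes, which oxidise them, and with conjugating enzymes and transporters that carry the products out. PB acts mainly through the nuclear receptor CAR, which leaves the cytoplasm and switches on Cyp2b genes. PCN, pregnenolone 16alpha-carbonitrile, is a ligand of the rodent nuclear receptor PXR, which switches on Cyp3a genes, and the targets of the receptors overlap.

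Each value is a level on the log-like scale of the deposited values, after quantile normalization. The change in a single array is that array minus the DMSO array of the same code, in the same units. A change given for a group, with its SE or adjusted p, is a group difference from a fit with the code as a block. That fit takes in all groups of the series, so its change can differ from array minus DMSO, even for 1 array. The base of the scale is not given in the sources used here. If the control transcripts were added at 5, 25 and 100 pM, as is standard on these arrays, a doubling corresponded to 0.475 units (SD 0.0140, n = 8 arrays). Changes are therefore left in units. All 12 hepatocyte markers on the array passed the filter on dim genes, and their median percentile among all probe sets was 99.9. Of 10 endothelial markers 8 were on the array and 1 passed. Of 13 macrophage markers on the array 7 passed, among them Clec4f, and Adgre1, Cd163 and Ptprc did not. The mean level of the macrophage markers lay between 0.31 and 0.60 in the inducer arrays and between 0.31 and 0.61 in the DMSO arrays. Of the stellate cell markers 9 of 13 on the array passed, without Col1a1 and Col1a2, and of the cholangiocyte markers 4 of 6. No marker of any of these types was called in a comparison. In such bulk RNA fewer cells of a type and less RNA per cell cannot be told apart. The 3' minus 5' signal of Actb, a measure of RNA degradation, was 0.551 to 0.755 in the inducer arrays and 0.744 to 0.810 in the DMSO arrays, and its part in the results was not tested.

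The 2 Rs293 arrays labelled PB and PCN went against their labels. The PB minus PCN difference of a gene was taken within each code, so that no DMSO array entered it. In Rs304, 51 genes differed by at least 0.5 units between the inducers, and all 51 had the opposite sign in Rs293. Of the 65 genes that differed by as much in Rs293, 64 had the opposite sign in Rs304. Over all 10490 genes tested 6744 had opposite signs, and the correlation across genes of the difference in Rs293 with that in Rs304 was Pearson -0.656 and Spearman -0.480, where each code's points share its pair of arrays and genes are not independent.

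**Figure D1:**
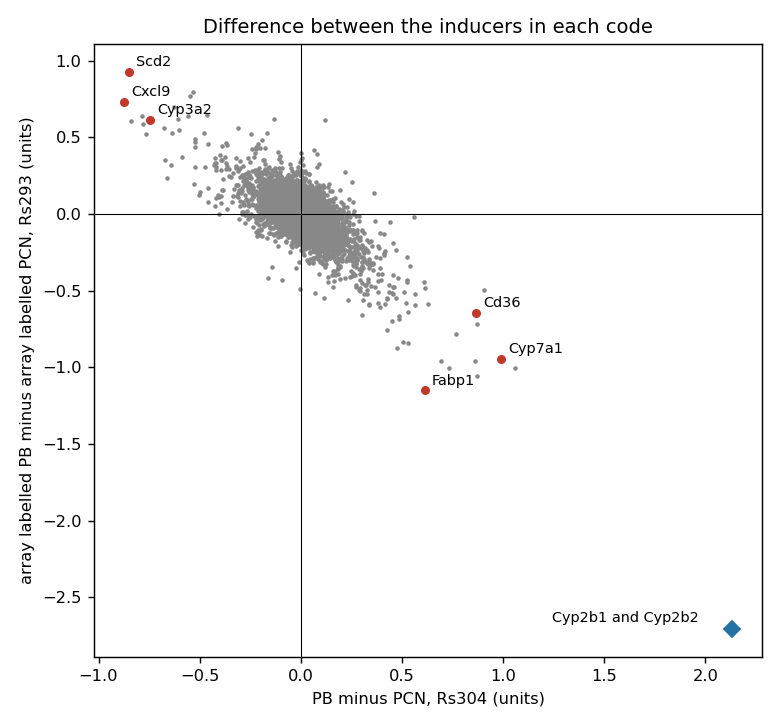
Each grey point is 1 of 10490 genes, with its PB minus PCN difference in Rs304 on the horizontal axis and the difference between the Rs293 arrays labelled PB and PCN on the vertical axis, both in units of the deposited scale. The cloud runs from upper left to lower right (Pearson -0.656), and the Cyp2b1 and Cyp2b2 probe set lies farthest out at lower right.

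Taken one array at a time, the change in the Rs293 array labelled PB resembled that of PCN Rs304. Of the 41 genes at least 0.5 units higher in PCN Rs304 than in its DMSO array (0.391% of genes tested), all 41 were higher in the Rs293 array labelled PB, 38 of them by at least 0.5 times as much. In the Rs293 array labelled PCN 39 were higher, but 6 by at least 0.5 times as much. Of the 36 genes lower by 0.5 in PCN Rs304 (0.343%), 35 were lower in the Rs293 array labelled PB, 31 of them by at least 0.5 times as much, and 25 were lower in the Rs293 array labelled PCN, 0 of them by 0.5 times as much. Across the 10490 genes the change in PCN Rs304 correlated at Pearson 0.761 with the Rs293 array labelled PB and at 0.379 with the Rs293 array labelled PCN. PB Rs304 gave 0.293 with the Rs293 array labelled PB and 0.342 with the one labelled PCN. The change in PB Rs256 correlated at 0.018 with PB Rs304 and 0.066 with PCN Rs304. With the Rs293 array labelled PB it gave 0.037, and with the one labelled PCN -0.081, the lowest of the 4. The SD of the change over genes was 0.126 in the Rs293 array labelled PB and 0.121 in PCN Rs304, against 0.0642 in PB Rs304, 0.0711 in the Rs293 array labelled PCN and 0.105 in PB Rs256. Whether these 2 arrays were mislabelled was not tested. Counts and calls below are given with them as labelled and without them, and other genes by their values in the 5 arrays one by one. They were set aside for their measured values, so p-values without them are not independent of that choice, and PCN then rests on 1 array, assumed to vary like the other groups.

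**Figure D2:**
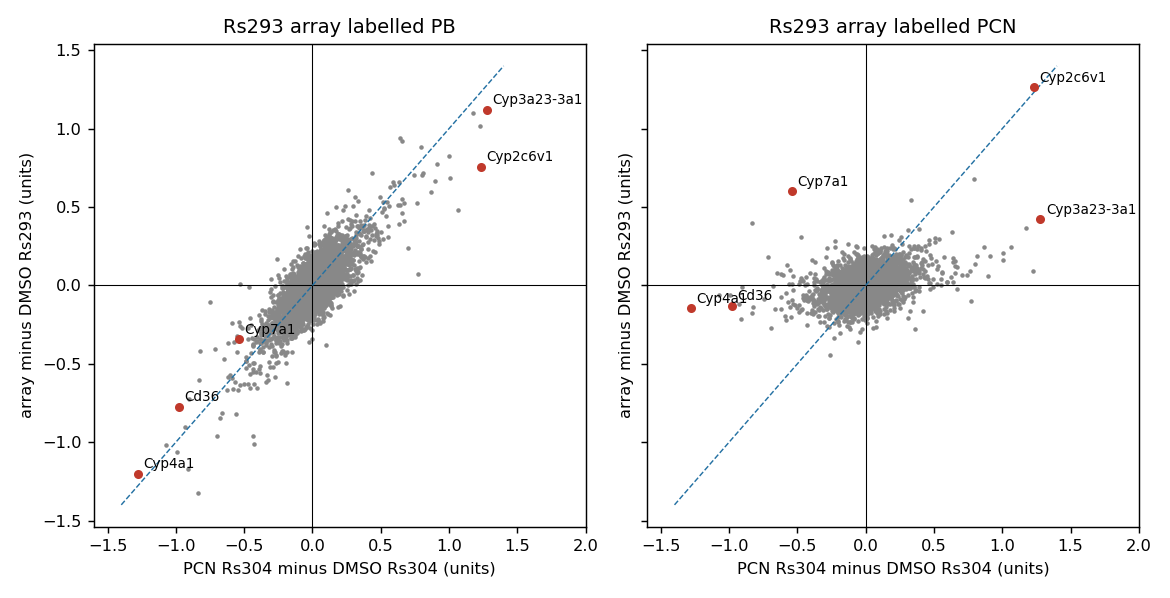
The change of each of 10490 genes in PCN Rs304 (horizontal, units) is set against its change in the Rs293 array labelled PB (left panel) and in the Rs293 array labelled PCN (right panel), each against the DMSO array of its own code, with the dashed line marking equal change. The left cloud follows the line (Pearson 0.761) and the right one is flatter (0.379).

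Cyp2b1 and Cyp2b2, the P450 genes by which PB induction is classically followed, share a probe set and cannot be told apart. Its level was 3.10 in PB Rs256, 3.03 in PB Rs304 and 0.32 in the Rs293 array labelled PB. It was 0.89 in PCN Rs304 and 3.02 in the Rs293 array labelled PCN, against 1.0, 1.05 and 0.89 in the Rs256, Rs304 and Rs293 DMSO arrays. The 3 arrays at the top thus stood about 2 units above DMSO, 1 of them labelled PCN, while PCN Rs304 lay within the DMSO range and the Rs293 array labelled PB below it. With all 8 arrays the change was 1.17 (SE, the standard error of the fit, 0.455, adjusted p = 1 by limma over 17973 probe sets) for PB and 1.13 (SE 0.513, adjusted p = 0.919) for PCN. Without the 2 Rs293 arrays it was 2.01 for PB (SE 0.206, adjusted p = 1.07e-05) and -0.01 for PCN (SE 0.264, adjusted p = 1), and PB exceeded PCN by 2.02 (SE 0.277, adjusted p = 0.0013). The PB call held on the values as deposited (adjusted p = 0.00351) and without the replicate block (0.000764), whereas that of PB against PCN gave 0.063 and 0.0161. In that probe-level fit 4 probe sets, or 0.0223%, were called for PB. Cyp2b3, a constitutive member of the family, had changes of 0.20 in PB Rs256, 0.05 in PB Rs304, -0.27 in the Rs293 array labelled PB, -0.47 in PCN Rs304 and 0.31 in the Rs293 array labelled PCN, and was not called. Cyp2b12 and Cyp2b21 did not pass the filter on dim genes.

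Few genes rose in a fit that used the arrays as labelled, and none fell. PB called 2 of 10490 genes (0.0191%), Cyp2c6v1 and Ugt2b1. PCN called these and Crp (0.0286%), and the 5 inducer arrays pooled as 1 group called those 3 and Syngr1 (0.0381%). At an unadjusted p under 0.05 there were 437 genes for PB, 595 for PCN and 677 for the pooled arrays, where chance gives 524. PB and PCN of one code share a DMSO array, so these comparisons are not independent of each other.

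Cyp2c6v1, a P450 gene of the rat Cyp2c family known to respond to PB, had levels of 3.28 in PB Rs256, 2.66 in PB Rs304, 2.18 in the Rs293 array labelled PB, 2.15 in PCN Rs304 and 2.68 in the Rs293 array labelled PCN. The DMSO levels were 1.93 in Rs256, 0.92 in Rs304 and 1.42 in Rs293. All 5 inducer arrays lay above all 3 DMSO arrays, as for 78 genes in all (0.744%), and against the DMSO array of its code each rose by 0.76 to 1.74, least in the Rs293 array labelled PB. The change was 1.28 for PB (SE 0.128, adjusted p = 3.77e-06), 1.22 for PCN (SE 0.145, adjusted p = 9.83e-05) and 1.26 pooled (SE 0.113, adjusted p = 2.55e-07). Without the 2 Rs293 arrays PB gave 1.48 (adjusted p = 2.29e-08) and PCN 1.03 (adjusted p = 0.000279). On the values as deposited the pooled call held (adjusted p = 0.0099), but those of PB (0.0694) and PCN (0.514) were lost. Without the replicate block all 3 were lost (adjusted p = 1 for each), and with only the 8 arrays the pooled adjusted p was 0.139, that of PB 0.906 and that of PCN 0.965. The DMSO levels themselves spanned 0.92 to 1.93.

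Ugt2b1, an enzyme that couples glucuronic acid to steroids and drugs, had levels of 3.20, 3.10 and 3.19 in PB Rs256, PB Rs304 and the Rs293 array labelled PB, and of 3.30 and 2.99 in PCN Rs304 and the Rs293 array labelled PCN. The DMSO arrays stood at 2.55, 2.50 and 2.31. The groups did not overlap, and the inducer arrays lay close together whatever their label. The change was 0.71 for PB (SE 0.0984, adjusted p = 0.0008), 0.68 for PCN (SE 0.111, adjusted p = 0.0116) and 0.70 pooled (SE 0.0866, adjusted p = 8.41e-05). Without the replicate block the pooled adjusted p was 0.000124, and on the values as deposited it was 1, as it was for PB and for PCN. The PCN call was also lost without DMSO Rs304 (adjusted p = 0.0615), DMSO Rs293 (0.155) or PCN Rs304 (0.999), and those of PB and PCN with only the 8 arrays (0.648 and 0.767). Without the 2 Rs293 arrays PB (0.70, adjusted p = 0.00723) and PCN (0.83, adjusted p = 0.00168) were still called.

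Crp, C-reactive protein of the acute phase, was at 3.36, 3.29 and 3.43 in the PB arrays of Rs256 and Rs304 and the Rs293 array labelled PB, and at 3.41 and 3.39 in PCN Rs304 and the Rs293 array labelled PCN. The DMSO arrays were at 3.02, 2.90 and 3.09, below every inducer array. Its change was 0.39 pooled (SE 0.0605, adjusted p = 0.00342), 0.43 for PCN (adjusted p = 0.0284) and 0.36 for PB (adjusted p = 0.0641). The pooled call was lost without the replicate block (adjusted p = 0.0974), on the values as deposited (1), without the 2 Rs293 arrays (0.0637) and with only the 8 arrays (0.0855). The PCN call was lost without the block, on the values as deposited (adjusted p = 0.999) and with only the 8 arrays (0.767). It was also lost without DMSO Rs256 (0.178) or DMSO Rs304 (0.254) and with centred and scaled arrays. Leaving out PCN Rs304, so that 1 PCN array remained, lost it as well (change 0.40). Syngr1, a membrane protein of secretory vesicles, rose by 0.18 pooled (SE 0.0341, adjusted p = 0.0431), with 0.12 to 0.26 in the 5 arrays, and without the 2 Rs293 arrays its adjusted p was 0.185. The Syngr1 call was also lost on the values as deposited, without the replicate block and with only the 8 arrays (adjusted p = 0.806). A trended, robust prior (0.0597) and leaving out DMSO Rs304 (0.348) or DMSO Rs293 (0.344) lost it too. So did centred and scaled arrays, and leaving out PB Rs256 (0.0799), the Rs293 array labelled PB (0.195) or PCN Rs304 (0.158).

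**Figure D3:**
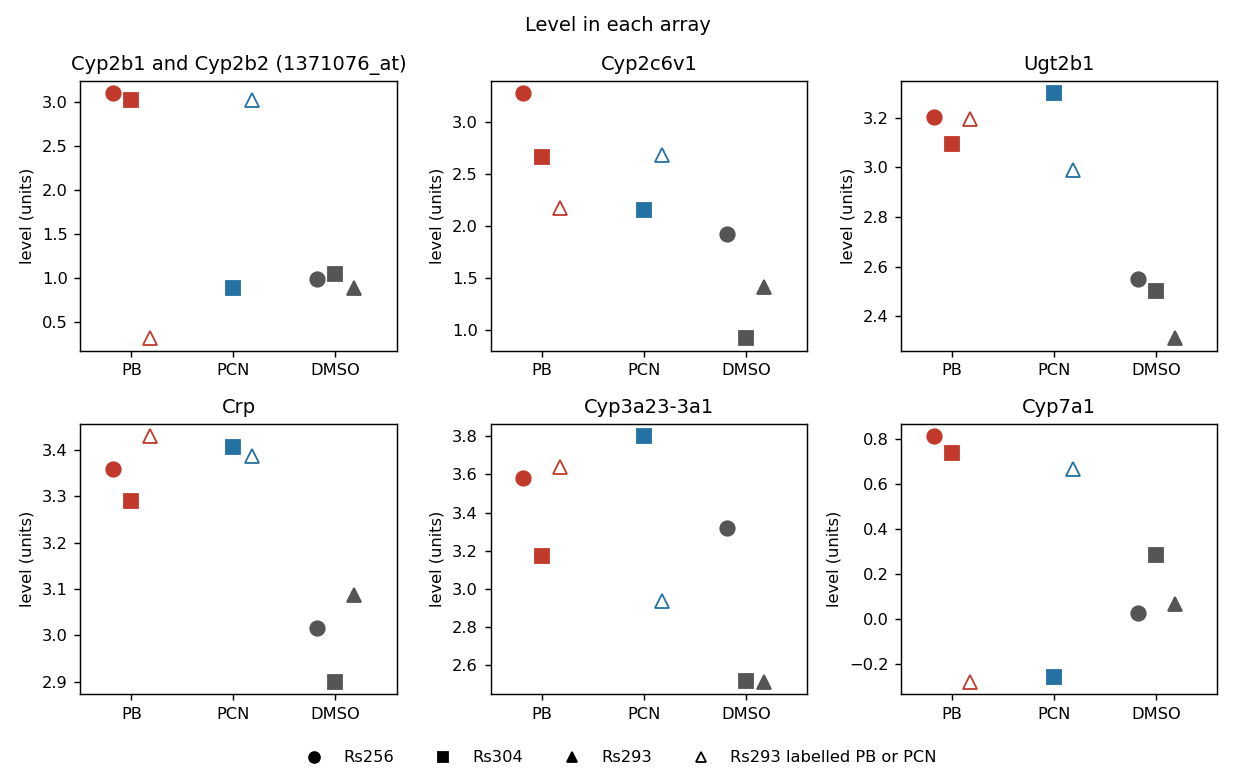
Levels in units of the deposited scale after quantile normalization in each of 8 arrays for 6 features, with PB, PCN and DMSO from left to right, 1 point per array and 1 symbol per code, open where an Rs293 array is labelled PB or PCN. For Cyp2b1 and Cyp2b2 and for Cyp7a1 the open points lie with the other inducer, while for Cyp2c6v1, Ugt2b1 and Crp all inducer points lie above DMSO. Cyp7a1 was picked for PB minus PCN differences of opposite sign in Rs304 and Rs293.

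Of the 4 tested Cyp3a genes, which encode the main steroid and drug oxidising P450 enzymes of the liver, 3 rose with PCN once the 2 Rs293 arrays were set aside, and for these the changes were largest in PCN Rs304 and in the Rs293 array labelled PB. The upstream sequences of the 4 tested members are shown because the rat Cyp3a promoters are where PXR binding is best known, at a pair of short repeats. They are the 250 bases before the start of each gene, from RefSeq on GRCr8, at chr12:14398804-14399053 (minus strand), chr12:14343858-14344107 (minus), chr12:13994062-13994311 (plus) and chr12:21960161-21960410 (minus). Capitals mark every match to the hexamer AGTTCA on either strand, or to the DR3 repeat AGTTCANNNAGTTCA, 2 hexamers in the same direction with 3 bases between them.
Cyp3a23-3a1: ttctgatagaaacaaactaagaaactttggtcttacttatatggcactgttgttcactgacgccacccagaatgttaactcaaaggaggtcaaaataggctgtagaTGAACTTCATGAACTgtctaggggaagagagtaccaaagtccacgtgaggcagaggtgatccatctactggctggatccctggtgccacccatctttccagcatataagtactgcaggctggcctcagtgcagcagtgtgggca
Cyp3a2: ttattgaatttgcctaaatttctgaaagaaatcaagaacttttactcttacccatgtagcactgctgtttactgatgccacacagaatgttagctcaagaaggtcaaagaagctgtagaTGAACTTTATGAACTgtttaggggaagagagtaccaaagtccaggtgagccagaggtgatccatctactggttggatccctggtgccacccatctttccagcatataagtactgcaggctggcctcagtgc
Cyp3a18: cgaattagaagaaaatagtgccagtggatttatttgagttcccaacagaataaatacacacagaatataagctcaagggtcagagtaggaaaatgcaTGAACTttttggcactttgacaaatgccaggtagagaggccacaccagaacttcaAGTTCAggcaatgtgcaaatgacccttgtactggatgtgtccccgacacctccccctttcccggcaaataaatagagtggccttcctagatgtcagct
Cyp3a9: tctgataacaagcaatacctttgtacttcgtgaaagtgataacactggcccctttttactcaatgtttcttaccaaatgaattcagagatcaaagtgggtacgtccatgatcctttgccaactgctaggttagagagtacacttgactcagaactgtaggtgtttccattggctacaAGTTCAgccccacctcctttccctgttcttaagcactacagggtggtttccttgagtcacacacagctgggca

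The DR3 repeat was found in the first pair only, as TGAACTTCATGAACT from base -144 to -130 before the start of Cyp3a23-3a1 and as TGAACTTTATGAACT from base -131 to -117 before that of Cyp3a2. Over all 33469 promoters of this length in the table these 2 were the only ones with it, or 0.00598%, and the windows of these genes matched at 165 of 237 aligned bases (69.6%). Cyp3a18 had 2 separate hexamers and Cyp3a9 had 1, and 12.2% of all promoters held at least 1. With exactly these letters, the DR4 repeat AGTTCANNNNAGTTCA was in 4 promoters (0.012%), none of them of a gene named here. The ER6 repeat TGAACTNNNNNNAGTTCA was in 0. Near matches were not counted, such as ttaactcaaaggaggtca in the Cyp3a23-3a1 window, which has the ER6 spacing but differs from its letters in each hexamer. A match is a description and not a binding site, and elements farther upstream were not searched. Only this spelling of the hexamer was searched, so the shares of promoters depend on that choice of letters.

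Cyp3a23-3a1 had levels of 3.58 in PB Rs256, 3.17 in PB Rs304, 3.64 in the Rs293 array labelled PB, 3.80 in PCN Rs304 and 2.94 in the Rs293 array labelled PCN, against 3.32, 2.52 and 2.52 in the DMSO arrays of Rs256, Rs304 and Rs293. It was higher than in the DMSO array of the code in all 5, by 1.28 in PCN Rs304 and 1.12 in the Rs293 array labelled PB and by 0.26 to 0.65 in the other 3. DMSO Rs256 was itself high and overlapped the inducers. The pooled change was 0.67 (SE 0.135, adjusted p = 0.0594) and became 0.73 without the 2 Rs293 arrays (adjusted p = 0.0413). For PCN without them it was 1.09 (SE 0.161, adjusted p = 0.000598), and for PB 0.56 (SE 0.125, adjusted p = 0.494).

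Cyp3a2 had changes of 0.54 in PB Rs256, 0.26 in PB Rs304, 0.82 in the Rs293 array labelled PB, 1.0 in PCN Rs304 and 0.21 in the Rs293 array labelled PCN, all on the side of a rise. Its pooled change was 0.58 (SE 0.125, adjusted p = 0.0904), and PCN without the 2 Rs293 arrays gave 1.08 (SE 0.121, adjusted p = 2.08e-05). Cyp3a18, a member more abundant in males, had changes of 1.0 in PCN Rs304 and 0.68 in the Rs293 array labelled PB, but of 0.01 to 0.24 in the other 3 arrays, and PCN without the 2 Rs293 arrays gave 0.88 (SE 0.153, adjusted p = 0.00218). Cyp3a9 stayed within -0.03 and 0.15 in all 5 arrays and was not called. On the values as deposited the calls of Cyp3a2 and Cyp3a18 for PCN remained, and that of Cyp3a23-3a1 did not.

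Once the 2 Rs293 arrays were set aside, PB called the same 2 genes and PCN called 133 (1.27%), of which 70 were higher (0.667% of genes tested) and 63 lower (0.601%). On the values as deposited 22 of the 133 remained, without Cyp2c6v1, Ugt2b1 and Crp. Of the genes named here they included Cyp3a2, Cyp3a18, Cyp4a1, Scd2, Cxcl9, Aqp9, S1pr1, Cndp2, Dennd2a and Gpd1l1, and every other gene named here as called for PCN without the 2 Rs293 arrays was lost on those values. Without the replicate block PCN called 4 genes in all, Ugt2b1, Aqp9, Cyp4a3 and S1pr1. Leaving out the Rs293 array labelled PCN alone gave 74. The values of the lists that follow are those of the fit that leaves PCN Rs304 as the only PCN array, beside the 5 arrays one by one. Called members of a list stand beside the 0.667% of all genes called higher and 0.601% called lower.

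Of 13 tested PXR targets 7 rose with PCN without the 2 Rs293 arrays and 0 fell, with a median change of 0.45 beside -0.00 over all genes tested. Over all genes tested 0.667% rose in that fit. The 7 PXR targets were the 3 Cyp3a genes, the uptake transporter Slco1a4, the export pump Abcc2, the electron donor of all microsomal P450 enzymes Por, and the glutathione transferase Gstm2. Slco1a4 had changes of 0.90 in PCN Rs304 and 0.66 in the Rs293 array labelled PB, and of -0.13 to 0.06 in the other 3 arrays (PCN without the 2 Rs293 arrays 0.83, SE 0.169, adjusted p = 0.01). Abcc2, which moves conjugates into bile, had changes of 0.64 and 0.94 in those 2 arrays and of 0.09 to 0.18 in the other 3 (0.75, adjusted p = 0.00887). On the values as deposited their adjusted p was 0.0785 and 0.512, and 2 of the 7 PXR targets, Cyp3a2 and Cyp3a18, remained called. Abcc2 parted the 5 arrays in the way the 3 called Cyp3a genes did. Slco1a4 did too, but it was picked for PB minus PCN differences of opposite sign in Rs304 and Rs293. Its opposite signs were therefore fixed by the choice.

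Of 15 tested CAR targets 5 rose in that comparison and 0 fell, with a median of 0.18. These were Cyp2c6v1, Ugt2b1, Abcc2, Por and Gadd45b, a stress response protein, and 0 of the 5 remained called on the values as deposited. Por was higher in all 5 arrays, by 0.22 to 0.39, with a pooled change of 0.29 (SE 0.0666, adjusted p = 0.128) and 0.32 without the 2 Rs293 arrays (adjusted p = 0.188). Alas1, the first enzyme of heme synthesis, was also higher in all 5, by 0.74 in PB Rs256 and by 0.14 to 0.32 in the others, and was not called (pooled 0.35, SE 0.132, adjusted p = 0.545, and 0.43 without the 2 Rs293 arrays, adjusted p = 0.588). The epoxide hydrolase Ephx1 had changes of 0.46 in PB Rs256 and of -0.00 to 0.17 in the others, and the export pump Abcc3 of -0.04 to 0.08. For PB without the 2 Rs293 arrays 2 of the 15 CAR targets rose and 0 of the 13 PXR targets, with medians of 0.12 and 0.10. Over all genes tested 0.0191% rose in that fit for PB and 0.667% for PCN. The direction shared by all 5 arrays was up for 5 CAR targets and 6 PXR targets and down for 0 of either, where 6.76% of all genes were up and 7.38% down in all 5.

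**Figure D4:**
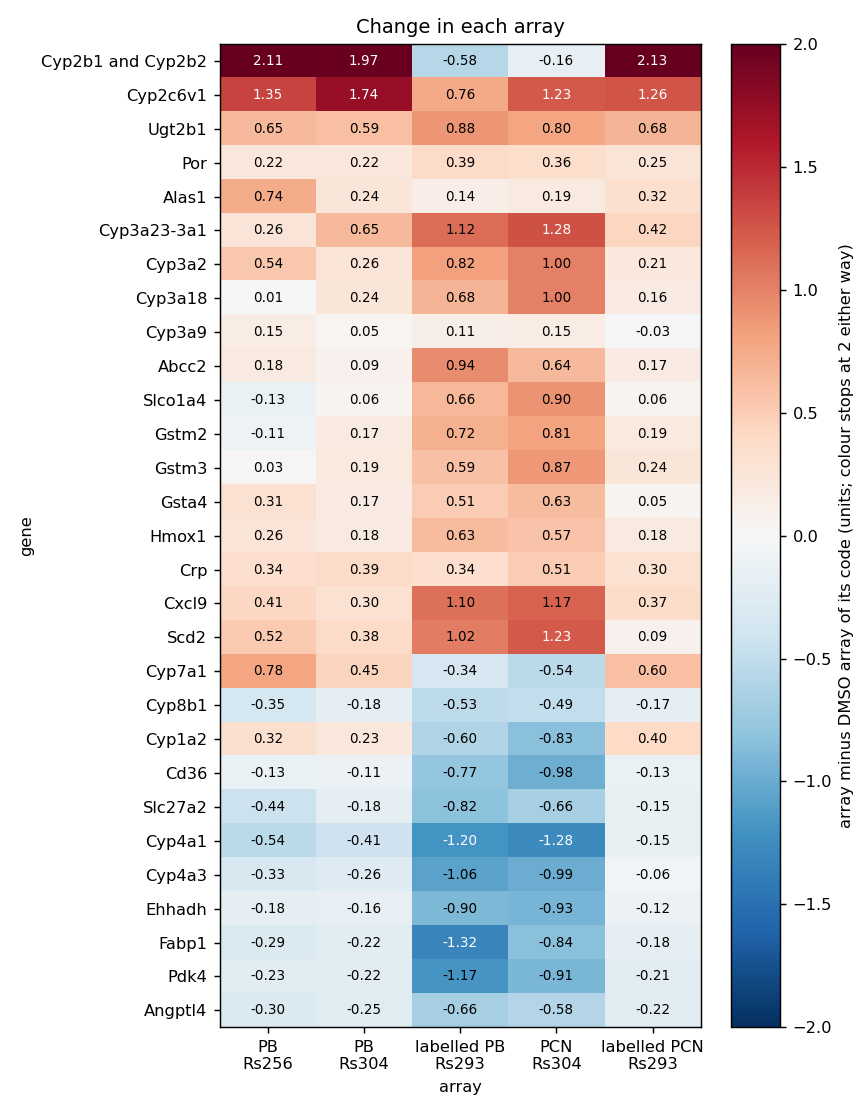
Change of named genes (rows) in the 5 inducer arrays (columns), each the array minus the DMSO array of its code, in units, with red for higher and blue for lower and the value printed in each cell. The columns of the Rs293 array labelled PB and of PCN Rs304 resemble each other from the Cyp3a rows to the Cyp4a rows, and in the Cyp2b1 and Cyp2b2 row the values near 2 stand in PB Rs256, PB Rs304 and the Rs293 array labelled PCN. Slco1a4, Cxcl9, Scd2, Cyp7a1, Cyp1a2, Cyp4a1 and Fabp1 belong to the genes picked for PB minus PCN differences of opposite sign in Rs304 and Rs293.

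Of 24 tested genes that the fatty acid receptor PPARalpha controls, which serve fatty acid oxidation, 0 were called with the arrays as labelled. With PCN without the 2 Rs293 arrays 8 fell, 0 rose and 16 were not called, with a median of -0.25, and on the values as deposited 1 of the 8 remained called, Cyp4a1. In all 5 arrays 14 of the 24 were below DMSO and 0 above, where 7.38% of all genes were below and 6.76% above. The median over the 24 was -0.15 in PB Rs256, -0.13 in PB Rs304, -0.35 in the Rs293 array labelled PB, -0.30 in PCN Rs304 and -0.08 in the Rs293 array labelled PCN. Those that fell with PCN, where 0.601% of all genes tested did, were Cyp4a1, Cyp4a3, Ehhadh, Fabp1, Angptl4, Eci1, Acadm and Acot2.

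Cyp4a1, a fatty acid omega-hydroxylase, had levels of 0.81 in PB Rs256, 1.66 in PB Rs304, 0.72 in the Rs293 array labelled PB, 0.79 in PCN Rs304 and 1.77 in the Rs293 array labelled PCN, and of 1.34, 2.07 and 1.92 in the DMSO arrays of Rs256, Rs304 and Rs293. Against the DMSO array of its code it was lower by more than 1 unit in 2 arrays, PCN Rs304 (-1.28) and the Rs293 array labelled PB (-1.20), and by less in the others (-0.54, -0.41 and -0.15). The pooled change was -0.72 (SE 0.177, adjusted p = 0.163), and PCN without the 2 Rs293 arrays gave -1.29 (SE 0.178, adjusted p = 0.000329), which also passed on the values as deposited (adjusted p = 0.00552). Its relative Cyp4a3 had changes of -0.99 in PCN Rs304 and -1.06 in the Rs293 array labelled PB and of -0.33 to -0.06 in the other arrays. Ehhadh, a peroxisomal oxidation enzyme, had changes of -0.93 and -0.90 in those 2 arrays and of -0.18 to -0.12 elsewhere. Fabp1, the fatty acid binding protein of liver, had changes of -0.84 and -1.32 there and of -0.29 to -0.18 elsewhere.

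Cd36, a fatty acid uptake protein, had changes of -0.98 in PCN Rs304 and -0.77 in the Rs293 array labelled PB, and of -0.13 to -0.11 in the other 3 (PCN without the 2 Rs293 arrays -0.99, SE 0.146, adjusted p = 0.000598, and 0.16 on the values as deposited). Pdk4, which restrains glucose oxidation, had changes of -0.91 and -1.17 in those arrays and of -0.23 to -0.21 elsewhere, and was not called. Slc27a2, an acyl-CoA synthetase for long chain fatty acids and bile acids, fell when the pooled arrays were taken without the 2 Rs293 arrays (-0.43, adjusted p = 0.0458), the only fall in that comparison (1 gene, 0.00953%), and with all arrays it gave -0.46 (SE 0.0965, adjusted p = 0.0845). Its changes were -0.82 in the Rs293 array labelled PB, -0.66 in PCN Rs304, -0.44 in PB Rs256, -0.18 in PB Rs304 and -0.15 in the Rs293 array labelled PCN. Scd2, a desaturase of fatty acid synthesis, was higher in all 5 arrays, by 1.23 in PCN Rs304, 1.02 in the Rs293 array labelled PB, 0.52 and 0.38 in PB Rs256 and Rs304 and 0.09 in the Rs293 array labelled PCN. It was the 1 of 20 tested genes of fatty acid synthesis to rise with PCN without the 2 Rs293 arrays (1.11, SE 0.174, adjusted p = 0.000942).

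**Figure D5:**
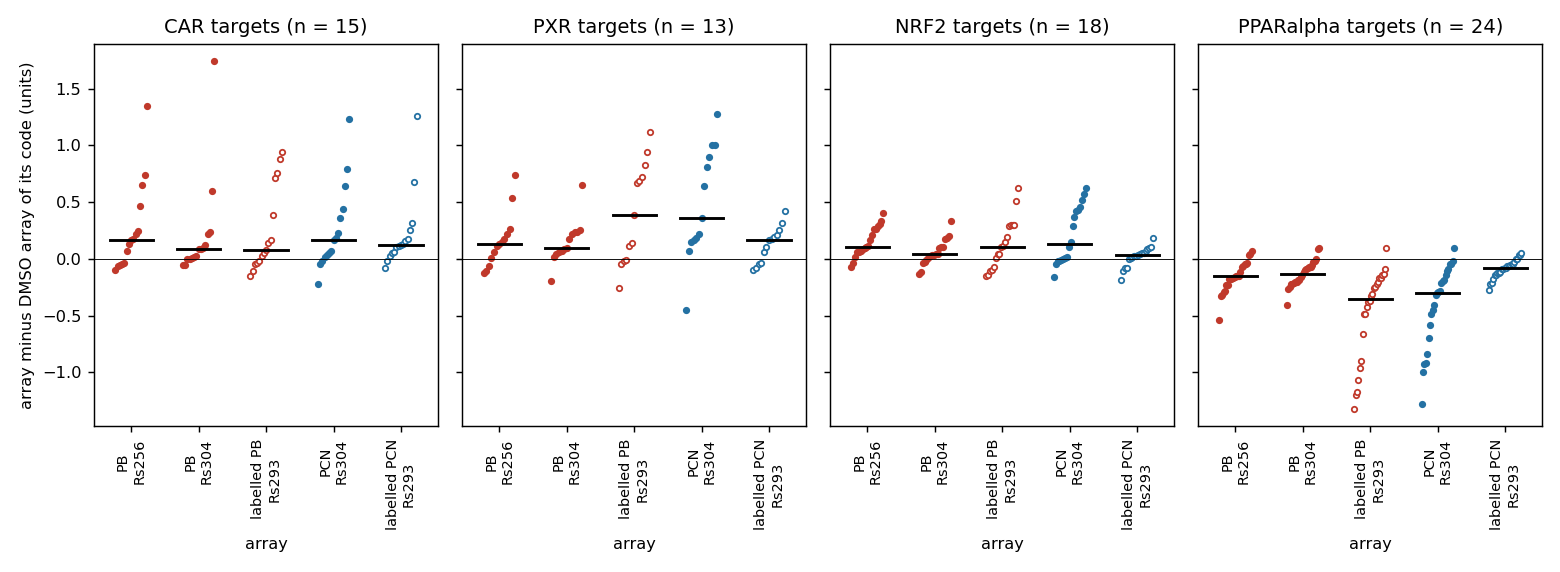
Each point is a tested member of 1 of 4 gene lists, placed at its change in 1 of the 5 inducer arrays (units, array minus the DMSO array of its code), with black bars at the medians and open points for the Rs293 arrays labelled PB and PCN. The PPARalpha medians are negative in all 5 arrays and lowest in the Rs293 array labelled PB (-0.35) and PCN Rs304 (-0.30).

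Cyp1a2 and Cyp7a1 are among the genes picked for large PB minus PCN differences of opposite sign in Rs304 and Rs293. Those signs were therefore fixed by the choice. Cyp7a1, which catalyses the first and limiting step from cholesterol to bile acids, lay on opposite sides of DMSO in different inducer arrays. Its level was 0.81 in PB Rs256, 0.73 in PB Rs304, -0.28 in the Rs293 array labelled PB, -0.26 in PCN Rs304 and 0.67 in the Rs293 array labelled PCN, against 0.03, 0.28 and 0.07 in the DMSO arrays. The first pair of PB arrays and the Rs293 array labelled PCN were above every DMSO array and the remaining pair below every one. The PB minus PCN difference was 0.99 in Rs304 and -0.94 in Rs293, and 1.02 in the fit without the 2 Rs293 arrays (SE 0.295, adjusted p = 0.269), so it was not called. Cyp1a2, a P450 enzyme of the aryl hydrocarbon receptor pathway, showed the same order with changes of 0.32, 0.23 and 0.40 in PB Rs256, PB Rs304 and the Rs293 array labelled PCN, and of -0.83 and -0.60 in PCN Rs304 and the Rs293 array labelled PB. Its PB minus PCN difference without the 2 Rs293 arrays was 1.07 (SE 0.226, adjusted p = 0.0382). Cyp8b1, which makes cholic acid, was lower in all 5 arrays, with changes of -0.53 to -0.17, and was not called (PCN without the 2 Rs293 arrays -0.62, adjusted p = 0.322).

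Of 18 tested NRF2 targets, genes of oxidant defence, 8 were higher in all 5 arrays, where 6.76% of all genes were. For PCN without the 2 Rs293 arrays, which leaves 1 PCN array, their median change was 0.16. Gclc, Gsta4, Srxn1 and Tkt were called higher in that comparison, and none of them remained called on the values as deposited. Hmox1, which breaks down heme, was higher in all 5, by 0.63 in the Rs293 array labelled PB, 0.57 in PCN Rs304 and 0.18 to 0.26 in the others, and was not called (pooled 0.35, SE 0.095, adjusted p = 0.253, and PCN without the 2 Rs293 arrays 0.49, adjusted p = 0.0655). Of 19 glutathione transferases 3 rose and 0 fell in that comparison, with a median of -0.01. Over all genes tested 0.667% rose in that comparison, the share to set beside the NRF2 and glutathione transferase calls. Gstm3 had changes of 0.87 in PCN Rs304 and 0.59 in the Rs293 array labelled PB, and of 0.03 to 0.24 in the other 3.

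Within the Cyp2c family of 7 tested genes, Cyp2c6v1 and Cyp2c22 rose with PCN without the 2 Rs293 arrays and Cyp2c13 and Cyp2c23 fell. Cyp2c22 had changes of 0.49 in PCN Rs304 and 0.28 in the Rs293 array labelled PB, and of -0.02 to 0.09 in the other 3. Cyp2c11, a male-type enzyme, was higher in all 5 arrays by 0.13 to 0.34 and was not called (pooled 0.26, adjusted p = 0.204). Of 25 genes of the acute phase and immune response, Crp alone was called for PCN with the arrays as labelled. The chemokine Cxcl9 was called higher only without the 2 Rs293 arrays, where PCN rests on 1 array. Cxcl9 had changes of 1.17 in PCN Rs304 and 1.10 in the Rs293 array labelled PB and of 0.30 to 0.41 in the others.

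No gene was called between PB and PCN with the arrays as labelled (limma, 0 of 10490, with 99 at an unadjusted p under 0.05 and 0 also with a trended, robust prior). Without the 2 Rs293 arrays 28 genes were called (0.267%), 8 higher with PB (0.0763%) and 20 higher with PCN (0.191%). On the values as deposited 3 were, Aqp9, Dennd2a and Gpd1l1, and without the replicate block only Aqp9. The 8 included Cyp1a2, Cd36, Cyp4a3, the coagulation factor F9 and the glycerol channel Aqp9 (0.50, SE 0.0693, adjusted p = 0.00121). The 20 included Cyp3a2 (-0.69, SE 0.127, adjusted p = 0.0153), Gstm2, Gstm3, Cyp2c22, Gclc, the dipeptidase Cndp2 (-0.73, SE 0.0949, adjusted p = 0.000986) and Insig2, which holds back sterol synthesis (-0.52, SE 0.0913, adjusted p = 0.0134). Cyp3a23-3a1 (-0.54, SE 0.169, adjusted p = 0.36) and Slco1a4 (-0.79, SE 0.178, adjusted p = 0.0624) were not called. Among genes whose PB minus PCN difference kept its sign in both codes, the 5 highest lay between 0.06 and 0.36 in Rs304 and between 0.14 and 0.62 in Rs293, and the 5 lowest between -0.16 and -0.01 in Rs304 and between -0.49 and -0.35 in Rs293.

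Other lists showed few calls. No gene of sterol synthesis (18 tested), endoplasmic reticulum stress (22), the cell cycle (11), p53 (11), sulfotransferases (12), gluconeogenesis (14) or the nuclear receptors themselves (20) was called in any comparison, with or without the 2 Rs293 arrays. Of 21 glucocorticoid response genes 3 fell with PCN without them, Tsc22d3, Tdo2 and Angptl4, and 1 rose, Gadd45b. Among genes called in no comparison as labelled but shifted the same way in all 5 arrays, the thioredoxin inhibitor Txnip had changes of -0.83 to -0.14 and the carboxylesterase Ces1d of -1.08 to -0.06. Both fell with PCN without the 2 Rs293 arrays, Txnip by 0.76 (adjusted p = 0.0122) and Ces1d by 1.11 (adjusted p = 0.00978), and on the values as deposited neither passed (0.445 and 0.0666). Uggt1, a glycoprotein folding sensor, was higher by 0.17 to 0.71 and Tsku by 0.31 to 0.54, and neither was called without the 2 Rs293 arrays (PCN adjusted p = 0.576 and 0.325).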

How the data were processed

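Total RNA of 35 cultures was hybridized as biotin-labelled cRNA to Affymetrix rat arrays, per the labels' protocols. The deposited table holds the authors' values as a score on a log-like scale. Its base, probe summary and normalization are not given in the sources used here. Depth has no meaning for arrays, and their number limits the precision.

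Arrays were quantile-normalized, which fixes the brightest probe set (Alb). Of 31099 probe sets 20826 name 1 gene, and the brightest of a gene's probe sets stood for it. A gene was tested if above the array median in at least 2 arrays (10490 of 14217). limma 3.58.1 in R 4.3.3 was fitted to all 35 arrays, with group means and the Rs code as a fixed block and 21 residual degrees of freedom. Adjusted p-values are Benjamini-Hochberg over all genes and two-sided, with a threshold of 0.05. The fit was tested on simulated data. The block is used because each array is read against the DMSO array of its code and PCN lacks Rs256. The code was read from the array titles. After group means were removed, PB and DMSO arrays of a code correlated at 0.684 to 0.781 across genes. PCN and DMSO arrays of a code correlated at 0.378 and 0.488, but PB and PCN arrays at only 0.054 and 0.073. With 2 PCN arrays the deviations of each mirror those of the other, and the Rs293 arrays enter them. These low values therefore cannot show whether PB and PCN arrays of a code pair. Alternatives were the values as deposited, centred and scaled arrays, no filter, no block, only the 8 arrays, probe sets as features, a trended prior and each array left out.

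Genes are named by a rule: those called, those shifted alike in all 5 arrays, the Cyp2b, Cyp3a, Cyp2c, CAR and PXR genes, leading members of other lists, and the largest PB minus PCN differences. The last were taken separately among genes whose difference kept its sign between Rs304 and Rs293 and among those where it was opposite. Those of opposite sign were Ces1d, Cyp1a2, Cyp4a1, Cyp7a1, Fabp1, Cxcl9, Defb1, Lrmda, Scd2 and Slco1a4. Their opposite signs were fixed by the choice. The groups, lists and named genes were chosen with earlier results of these data known. Probe sets that name several genes were given by their identifier.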

Additional observations from a re-analysis of the deposited data

Results flagged for a closer look

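The probe set shared by Cyp2b1 and Cyp2b2 also carried signal in arrays that no comparison here uses. In the 27 arrays of the triazole fungicides of the series its change from the DMSO array of the same code had a median of 0.79 and ran from -0.67 to 1.99, and 21 of the 27 stood above all 3 DMSO arrays. The 9 groups of 3 arrays differed with compound and dose. Propiconazole had medians of 1.55, 1.25 and -0.32 at 10, 30 and 100 uM, myclobutanil 0.89, 1.62 and 0.57, and triadimefon 0.79, 0.49 and -0.10. At 100 uM all 3 propiconazole arrays lay below the DMSO array of their code, from -0.67 to -0.29. No test between these groups was made. Groups of 2 or 3 arrays are too small for the check for a single stray sample, so none was made.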

How the results depend on the processing

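Counts of called genes depended on the normalization, the replicate block and the arrays used, and the cause was not tested. On the values as deposited PB called 0 genes, PCN 0 and the pooled arrays 1, against 2, 3 and 4 in the reported fit. With centred and scaled arrays PB called 0, PCN 0 and the pooled arrays 0. Without the replicate block PB called 1, PCN 1 and the pooled arrays 1. With only the 8 arrays, which leaves fewer degrees of freedom, PB called 0, PCN 0 and the pooled arrays 1. PB against PCN called 0 under each of these. Without the filter on dim genes, with probe sets as features or with a trended, robust prior no count moved by more than 1.5 times.

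Without the 2 Rs293 arrays PCN called 133 genes and PB against PCN 28, while PB kept 2 and the pooled arrays called 4. Combined with the values as deposited, a setting added after the data were seen, this gave 1 for PB, 22 for PCN, 1 for the pooled arrays and 3 for PB against PCN. Combined with no replicate block, also added, it gave 1 for PB, 4 for PCN, 1 for the pooled arrays and 1 for PB against PCN. Leaving out 1 array at a time gave 2 to 6 genes for PB, 1 to 74 for PCN, 3 to 29 for the pooled arrays and 0 to 0 for PB against PCN. The 74 and 29 came without the Rs293 array labelled PCN. The pooled count was 17 without PB Rs304, and PCN called 1 without PCN Rs304 or DMSO Rs304. Crp lost its pooled call without DMSO Rs256 or DMSO Rs304.

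Some changes turned direction. Among them was the PCN change of the Cyp2b1 and Cyp2b2 probe set, 1.13 as labelled and -0.0093 without the 2 Rs293 arrays. Without those arrays the pooled change of Abcc3 was -0.010 and that of Cyp2b3 0.0023. With the values as deposited as well, Cyp1a2 gave 0.098, Cyp2b3 0.057, F9 0.045 and Tdo2 0.046. With no block as well, Cyp2b3 gave 0.077 and the probe set -0.087 for PCN. Centred and scaled arrays gave 0.0023 for Cyp1a2 and 0.021 for Tdo2. With only the 8 arrays the probe set's PB minus PCN difference was -0.052. Leaving out 1 array at a time, the pooled change of Cyp1a2 ran from -0.206 to 0.077 and that of Cyp2b3 from -0.14 to 0.044, and for the probe set the PCN change ran from -0.086 to 2.34 and the PB minus PCN difference from -1.17 to 1.25. Signal over background limits dim genes: those below the array median were not tested.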
